A study of Mus musculus with 6 samples.

Results

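Distal regions shared by all libraries are stretches of the genome that carried a peak of histone H3 acetylated at lysine 27 (H3K27ac) in each of 6 libraries and lay more than 10 kb from both ends of every protein-coding gene. They were selected on measured values: the peaks of the 6 deposited lists that shared at least 1 bp were joined on chromosomes 1 to 19 and X, which gave 104143 regions. A peak in every list was found in 5489 of them, and 1487 of those were distal. Of these 1487, 791 overlapped a protein-coding gene body (inside genes) and 685 overlapped none (between genes). The other 11 had a deposited fold of at least 20 at their best peak in every library and were kept apart as extreme-fold sites, 2 inside and 9 between genes. The presence of a peak in every list is therefore fixed by the choice and is not a result.

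The assay was CUT&RUN: a nuclease is tethered by an antibody to chromatin with the mark, and the DNA fragments it cuts free are sequenced. Cells labelled as hematopoietic stem cells were isolated from bone marrow of wild-type mice (3 libraries) and of mice deficient in Ppp2ca (3 libraries, called knockout below), which encodes a catalytic subunit (alpha) of the protein phosphatase PP2A. Not given in the sources used here were the age, sex and strain of the mice, the deleted part of Ppp2ca and any Cre driver. The series text speaks of 3 mice a group, but no label ties a library to a mouse, so the spread between libraries may be partly technical.

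H3K27ac marks active promoters and active enhancers. An enhancer is a stretch of DNA that binds transcription factors and raises the transcription of a gene that can lie far away, and in blood stem cells such elements around the genes of Runx1, Erg, Fli1, Lmo2 and Spi1 have long served as examples. A mark far from the ends of protein-coding genes can also sit at an alternative promoter inside a gene, at the start of a non-coding RNA gene, or in a repeat.

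An annotated RefSeq transcription start lay in 160 of the 1487 regions (10.8%), 99 of them inside and 61 between genes. The table of starts is not complete, so counts of regions with a start are lower limits, and regions counted as without one may hold one. The sequences below are the 200 bases before 5 such starts, read 5′ to 3′ on the strand of the gene from RefSeq's GRCm38.p6 annotation. They are shown because their regions were among the better ranked ones with a start, were in the PP2A list or belong to well-known non-coding RNAs, and they were chosen after the values were seen. Capitals mark matches, on either strand, to the letters CCGGAAG of ETS factors, TGTGGT of RUNX factors, AGATAA of GATA factors, TGACGTCA of the cAMP response element, TGACTCA of AP-1 factors, GGGCGG of SP1 factors, CCAAT of NF-Y factors and, for the promoter box of that name, TATAAA.
Ppp2r5c, chr12:110485597-110485796, plus strand: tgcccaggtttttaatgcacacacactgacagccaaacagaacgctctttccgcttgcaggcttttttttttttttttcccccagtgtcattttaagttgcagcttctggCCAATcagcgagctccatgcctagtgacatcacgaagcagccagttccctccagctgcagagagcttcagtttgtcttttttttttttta
Tank, chr2:61592897-61593096, plus strand: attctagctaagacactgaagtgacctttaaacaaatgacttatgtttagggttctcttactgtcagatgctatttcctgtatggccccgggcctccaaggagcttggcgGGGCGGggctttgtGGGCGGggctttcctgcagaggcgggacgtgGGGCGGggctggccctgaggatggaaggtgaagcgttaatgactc
Elf1, chr14:79515474-79515673, plus strand: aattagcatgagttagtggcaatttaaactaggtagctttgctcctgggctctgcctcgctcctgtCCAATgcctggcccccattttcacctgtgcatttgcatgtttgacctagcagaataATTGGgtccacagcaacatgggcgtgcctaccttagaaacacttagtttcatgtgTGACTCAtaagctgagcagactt
Malat1, chr19:5802673-5802872, minus strand: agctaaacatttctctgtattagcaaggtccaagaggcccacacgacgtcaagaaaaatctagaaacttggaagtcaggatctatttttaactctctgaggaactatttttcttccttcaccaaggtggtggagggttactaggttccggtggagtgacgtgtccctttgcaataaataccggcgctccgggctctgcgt
Chaserr, chr7:73558396-73558595, minus strand: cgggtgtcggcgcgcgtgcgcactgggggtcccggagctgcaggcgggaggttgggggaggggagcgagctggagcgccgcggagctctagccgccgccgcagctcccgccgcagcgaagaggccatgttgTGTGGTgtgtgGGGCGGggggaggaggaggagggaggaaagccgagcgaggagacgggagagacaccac

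These windows differ widely in composition. G and C made up 73.5% of the Chaserr window, which held 22 CG dinucleotides, against 45% and 4 for Ppp2r5c. The Tank window held 3 matches to the SP1 letters, the Elf1 window 1 to AP-1 and 2 to NF-Y, the Ppp2r5c window 1 to NF-Y and the Chaserr window 1 each to RUNX and SP1. The Malat1 window held none of the 8 motifs. Over all 194 annotated starts in the regions the SP1 letters occurred in 38.1% of windows, against 31.3% of the 32619 windows of the reference table. The cAMP response element occurred in 4.12% against 1.48%, RUNX in 14.4% against 11.0%, ETS in 7.73% against 6.34% and AP-1 in 3.61% against 3.68%. GATA occurred in 4.64% against 7.81%, NF-Y in 22.7% against 29.5% and TATA in 3.61% against 9.99%. The sets differ in make-up: 102 of the 194 starts and 21045 of the 32619 windows belong to protein-coding genes. At protein-coding starts RUNX occurred in 9.80% against 9.63%, and at those of long non-coding RNAs in 19.6% against 13.6%. The 92 starts of long non-coding RNAs (lncRNAs) in the regions had a median of 53% G and C, against 48.5% for all 11574 lncRNA windows. A match is a description of letters, several regions hold more than 1 start, and no test was made.

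The covered width is the number of base pairs that the peaks of a library cover in a region. The summit height is the number of fragments at the best summit divided by the library's genome-wide background of fragments per 200 bp, both solved from the deposited fold and p-value; this measure was added after the data had been seen. A region was called higher or wider in a genotype where every library of that genotype exceeded every library of the other. The presence of a peak depends on the same fragments, so width and height are related to the choice of the regions, and the wild-type lists, with 21917 to 29945 peaks against 34016 to 50453 in the knockout, limited which regions were shared. Depth was low: the lowest summit listed held 3 or 4 fragments, and the background was 0.498 to 0.584 fragments in the wild type and 0.738, 0.465 and 0.827 in knockout replicates 1 to 3. The libraries are bulk samples, so a larger share of cells with the mark and more of it per cell cannot be told apart. The label was checked at the ends of 14 stem and progenitor genes: 2 or 3 carried a peak in a wild-type library and 1 to 4 in a knockout library, and Cd34, Erg, Gata2, Hlf, Ly6a, Mecom and Slamf1 were among those with none in any library. Of 9 granulocyte and monocyte genes, 2 to 4 carried a peak per wild-type library and 4 to 6 per knockout library, and Elane and Ly6g none. At a q-value of at most 0.05 these were 0 of 9 in each wild-type library and 3 to 4 in the knockout. For 7 erythroid genes they were 0 and 2 to 4. For the 14 stem and progenitor genes they were 0 to 1 and 1 to 3. B cell genes gave 0 and 0 to 1 of 7, T cell genes 0 to 1 and 1, and endothelial and stromal genes 0 to 1 and 1 to 2. Genome-wide, a mean of 4005 peaks per wild-type library and 20664 per knockout library reached this q-value (5.16-fold). Whether any list rose beyond that was not tested. With all peaks counted, the wild-type and knockout ranges were, for B cell genes, 0 to 2 and 0 to 3 of 7, for T cell genes 1 and 1 to 2 of 7, for erythroid genes 2 to 3 and 3 to 4 of 7, and for endothelial and stromal genes 1 and 2 of 7. The part of other cells in the results was not tested.

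Shared distal regions were wider in every knockout library than in every wild-type library. Inside genes the median covered width was 488, 529 and 493 bp in replicates 1 to 3 of the wild type, against 970, 734 and 1027 bp in those of the knockout. Between genes it was 519, 546 and 500 bp against 972, 768 and 1013 bp. In both classes all 3 knockout libraries lay above all 3 wild-type libraries, with means of 503 ± 22.4 and 910 ± 155 bp inside genes (SD, n = 3 each, 1.81-fold) and 522 ± 23.1 and 918 ± 131 bp between genes (1.76-fold). An exact permutation test (two-sided, 20 ways to assign the libraries) gave p = 0.1 in both classes, the smallest value that 3 against 3 libraries allow, and 0.175 after Benjamini-Hochberg adjustment over 7 tests, so no call at 0.05 could be made.

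**Figure D1:**
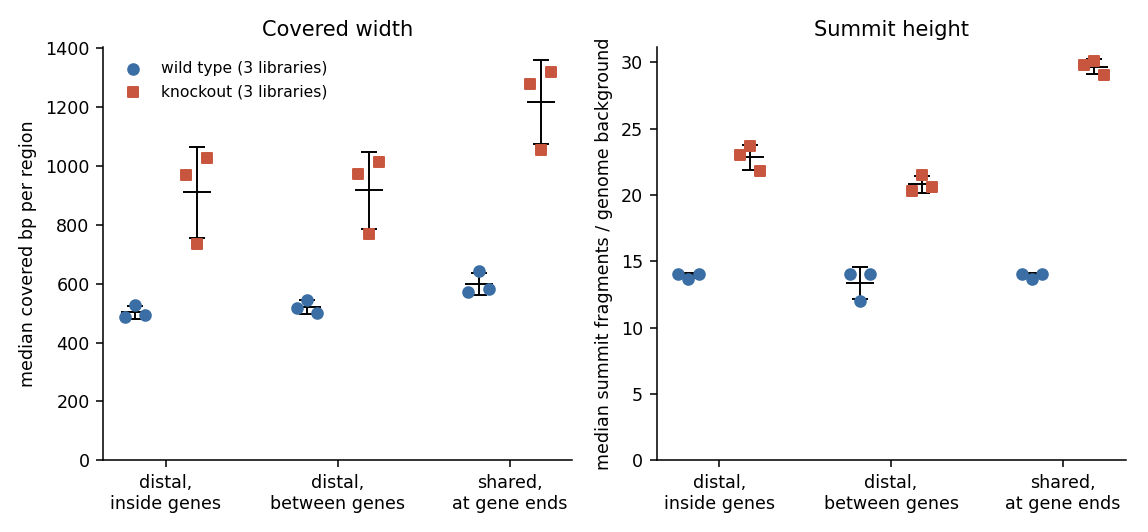
Median covered width in bp (left) and median summit height in multiples of the genome background (right) for shared distal regions inside genes, shared distal regions between genes and shared regions within 1000 bp of a gene end. Points are libraries, bars are means ± SD over 3 libraries; in each class the 3 knockout libraries lie above the 3 wild-type ones, and the gap is widest at gene ends.

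Summits were higher as well. Inside genes the median summit height was 14.03, 13.7 and 14.1 times the background in the wild type (replicates 1 to 3) against 23.0, 23.7 and 21.8 times in the knockout. Between genes it was 14.03, 11.99 and 14.1 times against 20.3, 21.5 and 20.6 times. These values are descriptive: the wild-type medians rest on 7 or 8 fragments a summit and so move in steps of whole fragments. The ratio of the genotype means was 1.64 inside and 1.56 between genes. Knockout replicate 2, which had the lowest background of all 6 libraries, showed the same order, with widths of 734 and 768 bp and heights of 23.7 and 21.5. A q-value of at most 0.05 was reached by 39.6% to 47.4% of the regions inside genes in the wild-type libraries and by 84.6% to 96.7% in the knockout libraries. Between genes these shares were 43.5% to 49.1% and 87.0% to 96.8%.

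Counted region by region, 341 of 791 regions inside genes (43.1%) and 308 of 685 between genes (45%) were wider in the knockout. Over all 5489 shared regions the same order held in 59.4%, so the distal share lay under that background. Wider in the wild type were none inside and 8 between genes, against a background of 0.255%. Of these 8, 7 are deep-summit sites described below, and the count lay between 14 and 30 when single libraries were left out. Higher in the knockout were 568 regions inside (71.8%) and 415 between genes (60.6%), against 83.9% of all shared regions. Higher in the wild type were 4 inside (0.506%) and 44 between genes (6.42%), against 1.22%. At gene ends, where 3144 regions were shared, 69% were wider and 93.7% higher in the knockout.

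The genotype difference was smaller in distal regions than at gene ends. On the log2 scale the median width of distal regions relative to gene-end regions differed by -0.18 inside genes and by -0.21 between genes, knockout minus wild type. The exact two-sided permutation p was 0.1 in each (adjusted 0.175), again the smallest possible. Median widths at gene ends were 599 ± 38.0 bp in the wild type and 1217 ± 142 bp in the knockout (SD, n = 3 each, 2.03-fold), and median heights 13.9 and 29.7. Median summits in the wild type rest on so few fragments that they cannot show whether distal and gene-end summits differ in height. A q-value of at most 0.05 was reached in the wild type by a mean of 51.3% of regions at gene ends. Inside genes this share was 42.4% and between genes 46.5%. In the knockout median distal summits were lower than those at gene ends. The mean number of separate peaks per region was 1.26 in both genotypes inside genes (exact permutation p = 1) and 1.25 against 1.22 between genes (exact permutation p = 0.4).

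Best summits of the 6 libraries often lay at different places in 1 region. A stretch covered by all 6 libraries existed in 440 regions inside genes (55.6%) and 422 between genes (61.6%), with a median length of 199.5 and 242.5 bp. The median distance between the outermost summits of the 6 libraries was 614 bp inside and 557 bp between genes, in regions of 1380 and 1349 bp. All 6 summits lay within 200 bp in 29 regions inside (3.67%) and 67 between genes (9.78%). The median distance to the nearest gene end was 28926 bp inside and 34984 bp between genes, and 64 and 150 regions lay more than 100 kb away.

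Among the 12 lists of genes searched, the genes of stem cell transcription factors held the most regions. These genes also had the most distal regions with a peak in any library, 513. A region belonged to a gene that held it or had the nearest end. Stem cell factors had 21 ordinary regions at 9 of 30 genes, namely Erg, Etv6, Fli1, Gata2, Gfi1, Ikzf1, Lmo2, Runx1 and Spi1. That was 1.42% of the ordinary shared distal regions, against 0.814% of the 63063 distal regions with a peak in any library. Of the 21, 17 were higher and 7 wider in the knockout and none in the wild type. The 17 lie above the 66.6% of ordinary distal regions that were higher and under the 83.9% of all shared regions. The 7 lie under both the 44% of ordinary distal and the 59.4% of all shared regions that were wider. The median log2 difference in height of the 21 was 0.62, against 0.69 over ordinary distal regions and 0.95 over all shared regions.

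Spi1, which encodes the myeloid and lymphoid factor PU.1, held 1 region at chr2:91096306-91098081, 13.9 kb inside the gene. Its height was 28.1, 25.7 and 28.1 in the wild type (replicates 1 to 3) against 40.7, 40.9 and 48.4 in the knockout. Every knockout library was above every wild-type library, and all 6 passed a q-value of 0.05. The table of starts has no entry for Spi1, so whether this region lies at a promoter of the gene was not tested. Runx1, a factor needed for blood stem cells to form, had 6 regions, 3 inside and 3 between genes. The best ranked, at chr16:92714857-92716627, 109.4 kb from the nearest end, had heights of 28.1, 25.7 and 26.1 against 50.1, 51.6 and 44.7 and widths of 489, 832 and 910 bp against 1617, 1225 and 1771 bp. The region farthest from Runx1, chr16:93191005-93193133, had heights of 14.03, 13.7 and 10.0 against 14.9, 19.4 and 21.8. There the lowest knockout library lay just above the highest wild-type one.

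Erg, an ETS factor of stem cells and endothelium, held 2 regions, although its gene ends carried no peak. At chr16:95438745-95440178 heights were 30.1, 27.4 and 32.1 in the wild type and 33.9, 34.4 and 32.7 in the knockout, so the groups did not overlap but the ratio was only 1.13. Widths there were 934, 960 and 879 bp against 1404, 1268 and 1405 bp. Lmo2, a bridging protein of the stem cell factor complex, had 4 regions; the best ranked, at chr2:103944327-103946215, 11.7 kb from the gene, had heights of 22.0, 18.8 and 24.1 against 31.2, 34.4 and 29.0. Fli1, a close relative of Erg, held 2 regions, and the one at chr9:32508288-32510249 had 22.0, 17.1 and 16.1 against 33.9, 34.4 and 26.6. Gata2 had 1 region at chr6:88164586-88166336, 27.6 kb away, at 12.02, 10.3 and 12.1 against 12.2, 17.2 and 9.67; there the groups overlapped.

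Genes of stem cell receptors and niche contacts had 16 regions at 10 of 24 matched genes (1.08%, against 0.476% of all distal regions). Of the 16, 7 were higher and 4 wider in the knockout, under the 66.6% and 44% of ordinary distal regions. Over all shared regions these shares were 83.9% and 59.4%. Kit, the stem cell factor receptor, was the nearest gene of chr5:75729865-75732363 at 73.1 kb. Its heights were 18.04, 18.8 and 14.1 against 24.4, 27.96 and 20.6, and its widths 414, 1297 and 460 bp against 1421, 1024 and 2112 bp. The widths of Kit overlapped between genotypes and the heights did not. Cxcr4, the receptor that holds stem cells in the marrow, had 3 regions; the best ranked, chr1:128614109-128615834, went from 20.04, 17.1 and 26.1 to 27.1, 30.1 and 29.0 in height, while its median width was 1480 and 1476 bp.

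Myeloid genes had 10 regions at 6 of 24 genes (0.678% against 0.222%), with 6 higher in the knockout and 1 higher in the wild type. Over ordinary distal regions these shares were 66.6% and 3.25%, and over all shared regions 83.9% and 1.22%. Cebpb, a factor of granulocyte and macrophage genes, had 4 of the 10 regions, all between genes. At chr2:167752707-167754724, 62.3 kb away, heights were 12.02, 11.99 and 12.1 in the wild type and 35.2, 30.1 and 42.3 in the knockout, a ratio of 2.99. No wild-type library passed a q-value of 0.05 there, and all 3 knockout libraries did. The 1 region higher in the wild type, nearest to Ly6c2, is a deep-summit site described below. Megakaryocyte genes had 6 regions, at Fli1, Selp, Thbs1 and Vwf (0.4065% against 0.135%). Of the 6, 4 were higher in the knockout, near the 66.6% of ordinary distal regions. Vwf, the platelet adhesion protein von Willebrand factor, held chr6:125572098-125574113 at 14.03, 17.1 and 16.1 against 23.0, 27.96 and 24.2.

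The lists of other lineages held few regions, and the lymphoid, T and NK cell lists lay near their share of all distal regions. None of 20 erythroid genes had an ordinary shared distal region. At these genes lay 104 distal regions with a peak in any library, 0.165% of all distal regions. So small a share of the 1476 ordinary regions is only a few regions. Lymphoid genes had 4 regions at Bach2, Notch1 and Sox4 (0.271%, against 0.251%), T and NK cell genes 1 at Klrb1c (0.0678%, against 0.0729%), and 30 genes of other organs 2, both at Csmd1. These organ genes made up 0.136% of the ordinary regions and 0.201% of all distal regions.

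Among signalling genes, 9 regions belonged to 5 of 23 genes of the PI3K, AKT and mTOR pathway, Inpp5d among them (0.610%, against 0.550% of all distal regions). Of the 9, 6 were higher in the knockout, against 66.6% of ordinary distal and 83.9% of all shared regions. Inpp5d, the lipid phosphatase SHIP1, held 3 of the 9 regions. At chr1:87639847-87641015 heights were 22.0, 18.8 and 26.1 against 29.8, 36.6 and 33.9. Genes of AP-1, early response and MAPK had 7 regions at 6 of 24 genes (0.474% against 0.309%). Of the 7, 6 were higher in the knockout, against the same 66.6% and 83.9%. The region nearest to Atf3, a stress-response factor, chr1:191224022-191225441, also held the start of the lncRNA D730003I15Rik. Its heights were 10.0, 8.56 and 8.03 against 29.8, 34.4 and 23.0, a ratio of 3.28.

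Chromatin and histone acetylation genes had 6 regions at Dnmt3a, Hdac4, Hdac7, Kat2b and Tet2 (0.407%, under the 0.455% of all distal regions). Of the 6, 5 were higher in the knockout, against 66.6% of ordinary distal and 83.9% of all shared regions. Hdac4, a histone deacetylase, held an annotated start of its own in chr1:92180064-92181153, with heights of 12.02, 22.3 and 10.0 against 46.1, 51.6 and 50.8 and a ratio of 3.35. Tet2, an enzyme that oxidises methylated cytosine, was the nearest gene of chr3:133582710-133584408 at 37.6 kb, which had heights of 18.04, 11.99 and 14.1 against 29.8, 30.1 and 31.4. At both, every knockout library lay above every wild-type library.

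PP2A holds a scaffold, a catalytic and a regulatory subunit, and the regulatory subunit sets the substrate. Of 24 genes in the PP2A list, 2 had a region, both for regulatory subunits of the B56 family, which is 0.136% of the ordinary regions against 0.182% of all distal regions. The region in Ppp2r5c (B56 gamma), chr12:110484912-110486802, lay 37.8 kb inside the gene and held the start whose upstream window is printed above. Its heights were 28.1, 25.7 and 26.1 in the wild type (replicates 1 to 3) against 66.4, 75.3 and 72.5 in the knockout, a ratio of 2.68 between means. Its widths were 1050, 1019 and 1284 bp against 1744, 1389 and 1705 bp. The genotypes overlapped on neither measure; in width the gap between them was smaller than the range within each. All 6 libraries passed a q-value of 0.05. The region nearest to Ppp2r5a (B56 alpha), chr1:191420512-191422522, 23.5 kb away, was weaker, at 12.02, 11.99 and 8.03 against 18.97, 17.2 and 24.2. Its libraries shared no common base pair.

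**Figure D2:**
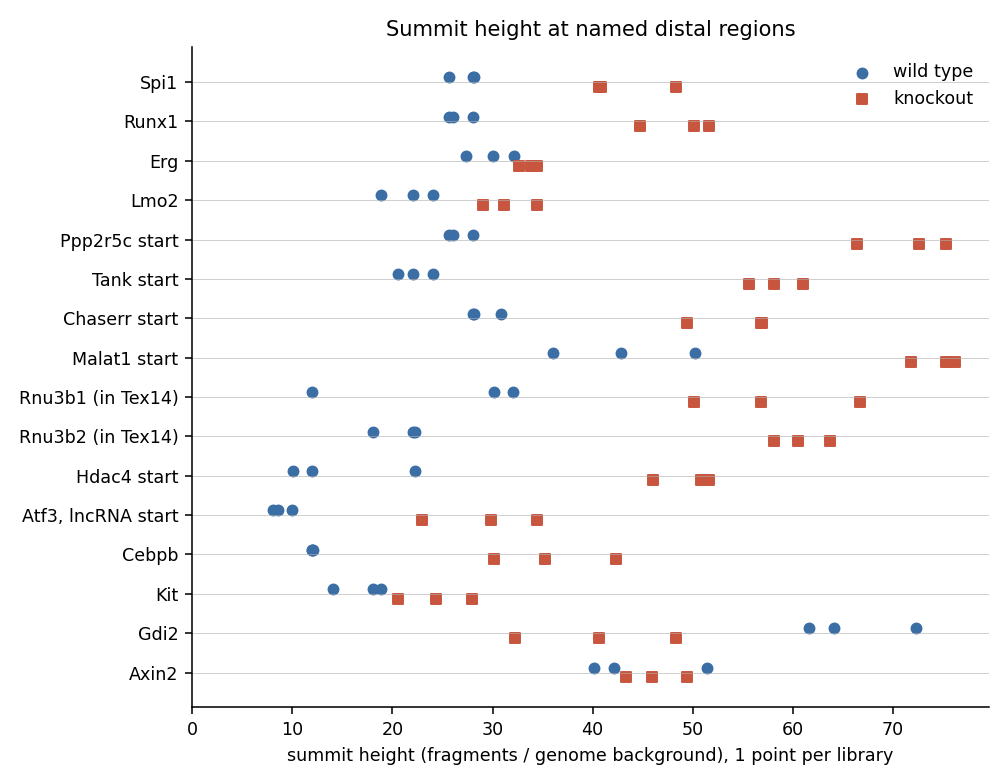
Summit height, in multiples of the genome background, at 16 named distal regions; each circle is a wild-type and each square a knockout library. The Ppp2r5c region lies between 25.7 and 28.1 in the wild type and between 66.4 and 75.3 in the knockout, while the genotypes overlap at Axin2 and are reversed at Gdi2.

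Annotated starts were more frequent the more libraries marked a region. A start lay within 500 bp of the best summit in 0.938% of the 50852 distal regions found in 1 library, 2.47% of those in 2, 3.56% in 3, 5.64% in 4, 6.62% in 5 and 7.73% of the 1487 found in all 6. Of the 160 shared regions with a start anywhere in them, 88 held a start of a protein-coding gene, all inside genes, and 81 held one of an lncRNA. Inside genes the median height of the 99 regions with a start went from 15.3 to 28.8 (1.89-fold), and that of the 692 without from 13.9 to 22.4 (1.61-fold). Between genes it went from 13.4 to 26.1 with a start (61 regions, 1.95-fold) and from 13.0 to 20.8 without (624 regions, 1.60-fold). Whether these ratios differ was not tested.

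**Figure D3:**
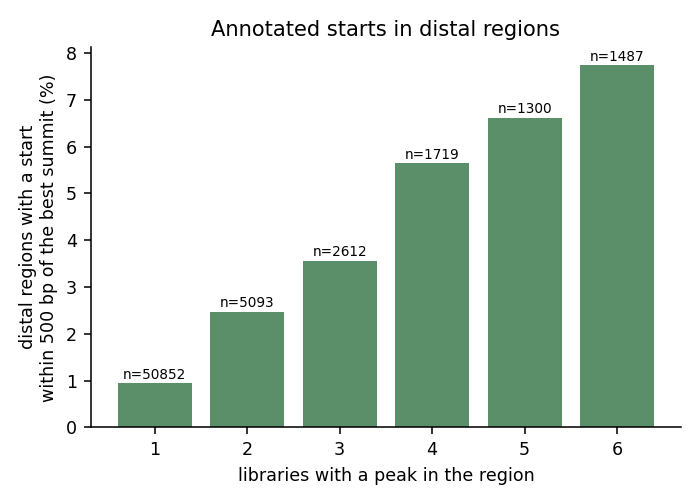
Share of distal regions, in percent, with an annotated RefSeq start within 500 bp of the best summit, by the number of libraries with a peak in the region; n is the number of regions. The share is 0.938% for 1 library and 7.73% for all 6.

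Tank, an adaptor of antiviral and NF-kappa B signalling, held such a start in chr2:61592829-61594885, 14.3 kb inside the gene. Heights were 22.0, 20.6 and 24.1 in the wild type and 61.0, 58.1 and 55.6 in the knockout, 2.62-fold. Elf1, an ETS factor of blood cells, held 2 regions. The one with the start, chr14:79515485-79516668, had heights of 28.1, 27.4 and 42.2 against 48.8, 45.2 and 47.2, and the groups did not overlap. The other, chr14:79521094-79522916, had 48.1, 44.5 and 44.2 against 59.6, 45.2 and 59.2, and there they did. Annotated starts of Lrif1, Numa1, Baz2b, Srpk2, Wipf1, Elf2 and Zfx also lay in shared distal regions. Zfx, an X-linked zinc finger factor of stem cell renewal, held chrX:94121269-94123822, with 24.1, 20.6 and 22.1 against 39.3, 38.7 and 29.0.

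Between genes the starts belonged to lncRNAs. Malat1, an abundant nuclear RNA, started in chr19:5801811-5804334, with heights of 36.1, 42.8 and 50.2 against 71.8, 75.3 and 76.2. Chaserr, an RNA that lies beside Chd2 and lowers its expression, started in chr7:73556628-73559489, with 28.1, 30.8 and 28.1 against 56.9, 49.5 and 56.8. Jpx, an RNA of the X inactivation centre, started in chrX:103493501-103495196, with 22.0, 22.3 and 16.1 against 43.4, 62.4 and 48.4. In these 3 regions all knockout libraries exceeded all wild-type ones. Mirt1, next to Dusp5, did not follow: chr19:53464128-53465193 had 30.1, 22.3 and 26.1 against 27.1, 32.3 and 27.8, and the groups overlapped.

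A non-coding gene had an end within 1000 bp of 214 regions (14.4%). By their annotation label these genes were lncRNAs in 167, pseudogenes in 19, small nuclear RNAs in 12, microRNAs and transfer RNAs in 4 each, immune receptor V segments in 3, and other types in the rest. Tex14, a testis gene, held 6 regions, and each had a gene with the label small nuclear RNA at it: Rnu1a1, Gm22068 and Rnu3b1 to Rnu3b4. At Rnu3b4 (chr11:87461834-87463137) heights were 20.04, 15.4 and 18.1 against 65.0, 66.7 and 52.0, the 3.43-fold ratio of means being higher than at any of the other 5. At Rnu3b2 (chr11:87471018-87472089) they were 18.04, 22.3 and 22.1 against 63.7, 58.1 and 60.5, and at Rnu3b3 (chr11:87448172-87449430) 24.1, 20.6 and 24.1 against 65.0, 60.2 and 60.5. At Rnu3b1 (chr11:87442702-87443732) wild-type replicate 2, at 11.99, lay apart from the other 2, at 32.1 and 30.1, and the knockout gave 50.1, 66.7 and 56.8. The Rnu3b genes are near-identical copies, so fragments may have been placed at any of them. At Rnu5g, nearest to Parp16, chr9:65201274-65202544 went from 14.03, 13.7 and 16.1 to 40.6, 47.3 and 38.7. The 4 regions at transfer RNA genes were weaker, as at n-TRacg3 (chr3:19627973-19629374), with 14.03, 11.99 and 10.0 against 17.6, 23.7 and 16.9.

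Regions were mostly solitary. Linked over gaps of up to 10000 bp, a distance chosen after the data had been seen, 1289 stood alone and 198 fell into 85 clusters, of which 8 held at least 3 regions and 1, described below, held 23. The regions inside genes belonged to 623 host genes, and 8 hosts held 4 or more: Akap13 and Tex14 6 each, Maml3 and Sgms1 5 each, and Baz2b, Cdk6, Pxn and Vmp1 4 each. Those with 3 included Etv6, Foxp1, Inpp5d, Itpr1, Lcp1, Myh9, Pde4b and Runx1. In Cdk6, a cell cycle kinase of blood progenitors, all 4 regions had knockout heights of at least 31.4, and chr5:3501329-3503607 went from 34.1, 23.97 and 24.1 to 47.4, 53.8 and 53.2 and from 459, 216 and 879 bp to 2150, 1450 and 1363 bp. In Akap13, a kinase anchor protein, chr7:75655238-75657170 went from 20.04, 23.97 and 18.1 to 48.8, 45.2 and 43.5. In Maml3, a Notch co-activator, the groups overlapped in the highest of the 5 regions, chr3:52069358-52071169, with 18.04, 27.4 and 34.1 against 32.5, 36.6 and 33.9.

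The largest ratio of median widths among ordinary regions with no overlap was in Mark2, a microtubule-affinity kinase. At chr19:7294213-7295974 widths were 200, 881 and 200 bp in the wild type and 1282, 1094 and 1688 bp in the knockout, a ratio of 6.41. The second was in Pde4d, a cyclic AMP phosphodiesterase. At chr13:108774846-108776932 widths were 200, 883 and 273 bp in the wild type and 1879, 1365 and 1557 bp in the knockout, a ratio of 5.70. Regions in Tnip1 and Entpd7 and near H2al1j and Samd8 followed, with ratios of 5.59, 5.56, 5.49 and 5.37. In each of these 6 regions at least 1 wild-type library had a width of 200 bp, the shortest peak in the lists, and at Mark2, Entpd7 and Samd8 that was also the wild-type median.

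Next to the limit of 10 kb, the regions just inside lay in Lair1, Rab20 and Gda, with heights of 12.02, 11.99 and 18.1, of 8.02, 6.85 and 8.03 and of 22.0, 17.1 and 20.1 in the wild type. Their knockout heights were 18.97, 19.4 and 21.8, then 12.2, 15.1 and 14.5, then 31.2, 38.7 and 36.3. The regions just outside were nearest to Scamp1, Myl12b and Eif2s3x, with wild-type heights of 8.02, 8.56 and 10.0, of 10.0, 6.85 and 22.1 and of 12.02, 11.99 and 8.03. Their knockout heights were 23.0, 25.8 and 21.8, then 23.0, 19.4 and 14.5, then 27.1, 19.4 and 24.2.

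A small set of sites showed the opposite order. Besides the 11 extreme-fold sites, 40 regions had a summit of at least 50 times the background in all 6 libraries; this class, called deep-summit sites, was added after the data had been seen. Their median fold was 3.52 in the wild type and 3.495 in the knockout, beside a median local background of 405 and 231 fragments. Their best summits lay a median of 12 bp apart over the 6 libraries, and those of the extreme-fold sites 24 bp, against the 614 and 557 bp of the ordinary classes. Both were chosen by height or fold, so their levels are a description. Widths differed little at most of them: the median of the extreme-fold sites was 447 ± 1.00 bp in the wild type and 446 ± 1.00 bp in the knockout (SD, n = 3 each, exact permutation p = 0.5). Wider in every wild-type library were 2 of the 11 (18.2%) and 7 of the 40 (17.5%), against 0.255% of all shared regions. Wider in every knockout library were 1 of the 11 (9.09%) and 0 of the 40, against 59.4%. Of all shared regions, 1.22% had higher summits in every wild-type than in every knockout library. Summits were higher in this sense at 8 of the 11 (72.7%) and at 33 of the 40 (82.5%). The median log2 difference, knockout minus wild type, was -0.73 and -1.11, against 0.69 for ordinary regions.

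**Figure D4:**
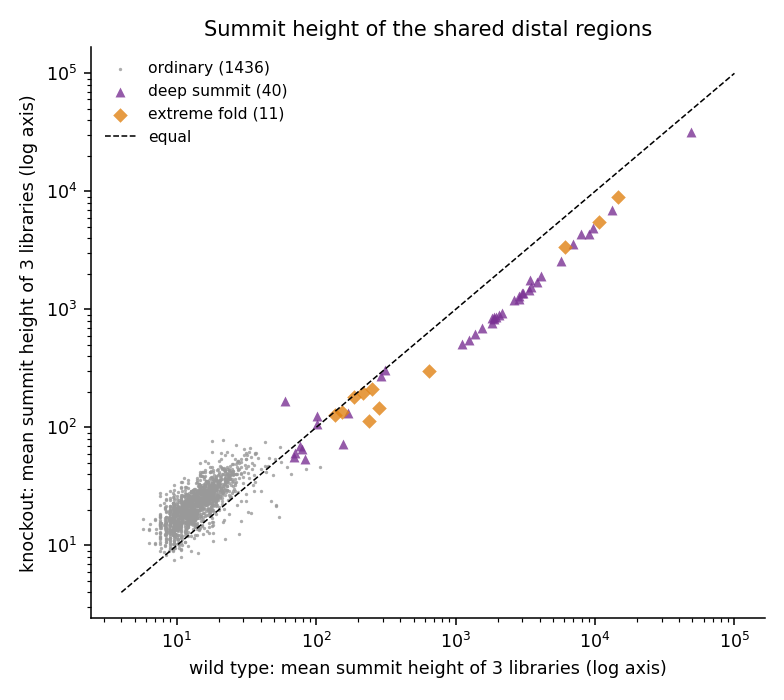
Mean summit height of 3 knockout libraries against that of 3 wild-type libraries for each shared distal region, both on log axes, with the line of equality. The 1436 ordinary regions lie mostly above the line; most of the 40 deep-summit (triangles) and 11 extreme-fold sites (diamonds) lie below it.

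The deepest extreme-fold site, chr12:3109770-3110218, lay 137.2 kb from Rab10. Its summit held 7634, 7957 and 7590 fragments in the wild type (replicates 1 to 3) against 6127, 5057 and 6316 in the knockout. Those are 15299, 13627 and 15241 times the background against 8302, 10877 and 7638 times, while the authors' fold lay between 40.77 and 41.12. The local background there was 185, 194 and 184 fragments in the wild type and 148, 122 and 154 in the knockout. The site near Rpusd4, chr9:35305133-35305689, had 11168, 10045 and 10721 against 5377, 5985 and 5006, and that inside Chl1, chr6:103648949-103649396, 6142, 5757 and 6357 against 3329, 3733 and 3059. The genotypes overlapped at 3 of the 11 sites, for example at chrX:170758141-170758611 near Asmt, with 152, 130 and 124 against 141, 127 and 112. Just under the fold limit of 20 in their weakest library lay chr1:195371629-195372069 near Cr2, at 18.52, chr7:145340840-145341554 near Mrgprd, at 17.61, and chr14:124801461-124802341 near Fgf14, at 16.88.

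Of the deep-summit sites, 23 lay together at the start of chromosome 9 (chr9:3000096-3038371, 38276 bp), with Alkbh8, 296.9 kb or more away, the nearest protein-coding gene. The region at chr9:3023340-3024745 had heights of 9836, 9337 and 9920 in the wild type and 4669, 5308 and 4666 in the knockout. The last of the 23, chr9:3037729-3038371, beside the microRNA gene Mir101c, had 1120, 1092 and 1096 against 495, 484 and 538. In each of the 23 regions all wild-type libraries exceeded all knockout libraries, an order that held in 1.22% of all shared regions. The deepest site of all, chr2:98666442-98667422, 1035 kb from Lrrc4c, had 50749, 45195 and 51374 against 29324, 37794 and 27522. Near Gm2244, chr14:19416797-19418361 had 13413, 12447 and 13645 against 6699, 7890 and 6221. The 3 deep-summit sites higher in the knockout were 2 near Cr2 and chr17:39843132-39848728, which overlaps the ribosomal RNA copy Rn18s-rs5 and had 100, 103 and 100 against 121, 138 and 118. No repeat annotation was used here, so whether these sites are repeats was not tested.

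**Figure D5:**
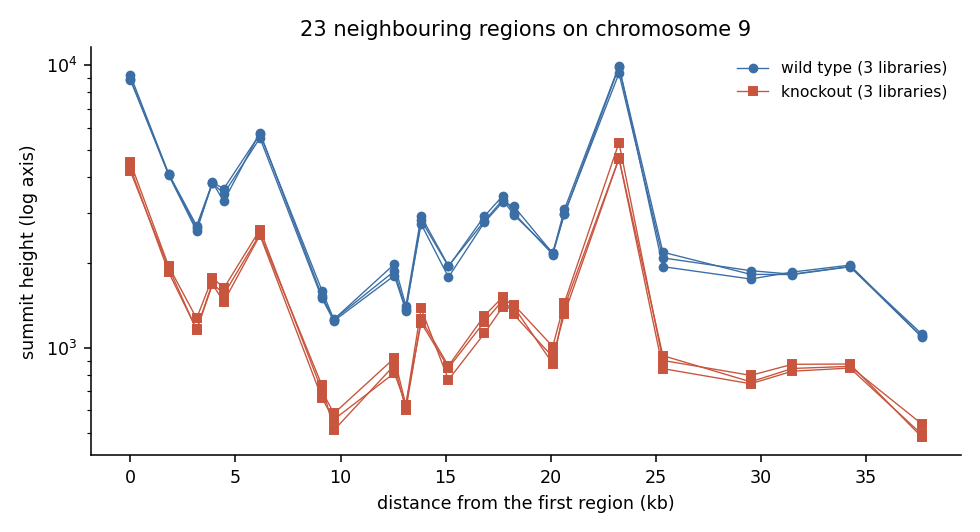
Summit height (log axis, multiples of the genome background) at the 23 neighbouring deep-summit regions at the start of chromosome 9, by distance in kb from the first. The profiles of the 6 libraries run in parallel, with the 3 wild-type libraries above the 3 knockout libraries at each region.

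Only 15 ordinary regions outside these classes were higher in the wild type, 1.04% of 1436. Of them, 3 lay inside genes, in Cdk5rap2, Smo and Tmem267, and 12 between genes, of which 3 were nearest to Tcte2 on chromosome 17. In Cdk5rap2, chr4:70378022-70378352 had 48.1, 49.7 and 64.3 against 17.6, 23.7 and 10.9. In Smo, the Hedgehog signal transducer, chr6:29747772-29748947 had 62.1, 42.8 and 50.2 against 17.6, 27.96 and 20.6. Near Tcte2, chr17:13550623-13551568 had 126, 90.8 and 104 against 42.0, 47.3 and 48.4. Near Gdi2, chr13:3372571-3373822 had 64.1, 61.6 and 72.3 against 40.7, 32.3 and 48.4. Of the 15, 5 lay in the first 3.5 Mb of a chromosome, where 18 of the 1436 ordinary regions lay in all. Of these 18, 9 were higher in the knockout, against 68.2% of the 1436 and 83.9% of all shared regions. The limit of 3.5 Mb was not set beforehand.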

How the data were processed

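H3K27ac CUT&RUN peak lists of 3 wild-type and 3 Ppp2ca-deficient libraries were used. The submitters' processing notes name GRCm38 (mm10) and the tools MACS2, BWA, Trimmomatic, HOMER, deepTools and ChIPseeker; not given in the sources used here were versions, parameters and a control library. Each library has its own list among those the authors deposited, without pooling of replicates. Each deposited line holds a score, the fold enrichment (a ratio) at the summit, the −log10 p-value, the −log10 q-value and the summit's offset; the score was not used. No list went below a −log10 p-value of 2.005.

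Regions, members and classes followed the definitions in the report, with 21631 protein-coding genes of RefSeq GRCm38.p6; exons and UTRs were not used here. Fragments at a summit and the local background were solved from the deposited fold and −log10 p-value by the caller's formulas; below a −log10 p-value of 15 whole fragments came out for 100% of peaks at a tolerance of 0.002. The genome background of a library was its commonest value. The solver and the merging were tested on simulated data. Library values were compared with exact permutation tests. The replicate numbers of the labels were not used as pairs: deviations of same-numbered libraries correlated between -0.008 and -0.003 over 5489 regions. Python 3.11.15, numpy 2.4.6, pandas 2.3.3, scipy 1.17.1 and matplotlib 3.10.9 were used.

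Members, gene lists (288 entries in 12 lists, 1 unmatched) and the rule for named regions were chosen with earlier results of these data known. The rule named the 12 ordinary regions of each class best ranked by −log10 p-value in their weakest library, the 10 highest extreme-fold sites, up to 4 regions per gene list, up to 10 at non-coding gene ends, the 3 on each side of 10 kb and the 6 with the largest width ratio. Of these, many of the best ranked were deep-summit sites, so the text names a selection, and regions with annotated starts, host genes with several regions and exceptions were chosen after their values were seen. Alternatives were a q-value of at most 0.05, lists of equal length, a common base pair, limits of 5 and 50 kb, other definitions of extreme fold, chromosomes 1 to 19 alone, leaving out each library and a replicate block. Summit height, leaving out deep-summit sites and means of log2 values were alternatives chosen after seeing the data.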

Additional observations from a re-analysis of the deposited data

How the results depend on the processing

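The direction of the width difference (1.81-fold inside, 1.76-fold between genes) held in all 17 alternatives of each, over 1.65 to 2.003 and 1.52 to 1.89, and so did the smaller width difference than at gene ends (-0.23 to -0.11 and -0.28 to -0.16 on the log2 scale). Only the direction held throughout. The exact permutation p of the width difference inside genes rose to 0.2 without each wild-type replicate in turn. Between genes it stayed at 0.1 there. Inside genes the exact permutation p of the comparison with gene ends rose to 0.5 with a q-value of at most 0.05. It was 0.2 without wild-type replicate 2 and without knockout replicate 2. With a replicate block the width ratios were 1.791 and 1.748 (exact p = 0.25, the smallest that 3 pairs allow); the block turned no direction. Peaks per region showed no stable direction: the ratio inside genes was 0.997 and became 1.046 with a q-value of at most 0.05, 1.021 beyond 50 kb and 1.004 to 1.005 without single wild-type replicates, and that between genes became 1.004 in both of the first 2 alternatives. Without each library in turn it ranged from 0.963 to 1.005 inside genes. Summit height ratios inside genes became 1.52 with a q-value of at most 0.05 and 1.75 with lists of equal length, where that between genes was 1.72, and they ranged from 1.53 to 1.79 inside genes without single libraries. The classes held, at a q-value of at most 0.05, 123 and 161 regions, 107 of them wider in the knockout; with a common base pair 440 and 422, of which 382; beyond 50 kb 221 and 271, of which 198, with 6 extreme-fold sites. Extreme-fold sites numbered 20 at a fold of at least 10, with a width ratio of 1.01 that reversed the direction, and 17 with a fold of at least 20 in any library. Regions wider in the knockout ranged from 662 to 993 without single libraries, with 993 without knockout replicate 2. Regions wider in the wild type numbered 8, between 14 and 30 without single libraries and 1 without deep-summit sites. The causes were not tested. Depth limits all heights: the median wild-type summit rests on 7 or 8 fragments.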
